A study of Mus musculus with 9 samples.

Results

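The 10 genes described here carry out calcium cycling through the sarcoplasmic reticulum of the heart muscle cell, and were taken as a fixed list of 10 gene symbols out of 49671 gene identifiers counted in mouse left ventricle. Cacna1c and Slc8a1 serve calcium entry and extrusion at the cell surface, Ryr2, Casq2, Trdn and Hrc serve release and luminal binding, and Atp2a2, Pln, Sln and Camk2d serve uptake and its control. All 10 were found on the mouse build GRCm38, and 9 passed the filter on low counts. Sln did not pass it. The choice of the genes did not use their measured values, although it was made with earlier results of these data known.

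In each heartbeat a small calcium current through the L-type channel opens ryanodine receptors on the sarcoplasmic reticulum, and the calcium released there starts contraction. Relaxation follows when the pump SERCA2a returns calcium to the reticulum and the sodium-calcium exchanger moves the rest out of the cell. Phospholamban and sarcolipin are small membrane proteins that slow the pump, and phosphorylation of phospholamban relieves its hold. Delta-sarcoglycan, encoded by Sgcd, belongs to the dystrophin-glycoprotein complex that anchors the muscle membrane, and ifetroban blocks the thromboxane-prostanoid receptor.

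Polyadenylated RNA was counted in 3 libraries of knockout (KO) ventricle with ifetroban, 2 of KO ventricle with vehicle, 2 of wild-type (WT) ventricle with ifetroban and 2 of WT ventricle with vehicle. The labels call the knockout dSG and give no strain, age, sex, dose, duration or allele design. They also do not state that each library is a different animal; p-values here therefore reflect only how far these libraries scatter, and that scatter could be technical. In bulk tissue, fewer cells of a type and less RNA per cell cannot be told apart.

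Libraries held 21299748 to 31394548 counts in genes, and each of the 9 tested calcium genes had 1790 to 510807 counts in a library, so counting error was small beside the spread between libraries. Sgcd stood at 7.49 to 18.5 CPM (counts scaled by library size) in the 5 KO libraries and at 28.9 to 33.1 CPM in 3 WT libraries, but at 11.1 CPM in the library labelled WT vehicle 1, which goes against that label. That library also had 53719 CPM of summed ventricular cardiomyocyte markers (44221 to 49080 in KO), 718 CPM of fibroblast markers (1068 to 1506 in KO) and 111 CPM of macrophage markers (155 to 193 in KO). Libraries also fell into 2 classes by transcript length. In 4 libraries (KO ifetroban 1, both KO vehicle libraries and the library labelled WT vehicle 1) genes with long transcripts were low (Spearman correlation of the deviation from the mean with exonic length -0.417 to -0.29 over 15235 genes), and in the other 5 they were high (0.302 to 0.386). Within KO, Sgcd was 7.49 to 12.1 CPM in the 3 libraries of the low class and 16.4 to 18.5 CPM in the 2 of the high class. The low class held 3 KO libraries and 1 WT library, so genotype and class were partly confounded. It held 1 of the 5 ifetroban libraries and 3 of the 4 vehicle libraries, so treatment and class were partly confounded too. Genotype differences given below within a class are plain differences of means, not balanced for treatment. In the low class they rest on 1 WT library, the one labelled WT vehicle 1. In the high class all KO libraries had ifetroban, while the WT libraries held both treatments. KO vehicle 1 had the lowest level of all 9 libraries for 7 of the 9 tested calcium genes.

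Promoter sequence from RefSeq (build GRCm38.p6) was matched for 7 of the 10 genes, in 9 windows of 300 bases (250 before the transcription start, 50 after it). Atp2a2, Sln and Trdn had no entry. The windows of Hrc, the gene whose KO and WT levels separated, and of Casq2, its partner in luminal calcium binding whose levels did not, are printed in lower case. Capitals mark CTAAAAAT, which resembles the core of a binding site of the muscle factor MEF2, or its reverse complement ATTTTTAG. The Hrc window lies at chr7:45335019-45335318 and the Casq2 window at chr3:102086165-102086464, both on the plus strand.
Hrc: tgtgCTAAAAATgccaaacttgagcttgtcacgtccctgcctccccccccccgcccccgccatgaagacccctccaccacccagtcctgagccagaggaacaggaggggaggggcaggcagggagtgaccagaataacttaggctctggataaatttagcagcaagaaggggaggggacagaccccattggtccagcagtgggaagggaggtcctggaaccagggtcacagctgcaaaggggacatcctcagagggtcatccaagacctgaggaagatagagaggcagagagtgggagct
Casq2: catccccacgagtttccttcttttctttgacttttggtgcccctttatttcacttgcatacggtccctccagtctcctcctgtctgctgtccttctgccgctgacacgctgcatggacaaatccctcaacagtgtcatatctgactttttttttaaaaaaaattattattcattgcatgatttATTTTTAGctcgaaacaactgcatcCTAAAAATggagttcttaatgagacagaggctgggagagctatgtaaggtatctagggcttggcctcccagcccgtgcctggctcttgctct
The letters start at position 5 of the Hrc window, and at positions 184 (reverse complement) and 209 of the Casq2 window, counted from 1 at its 5′ end. The other 7 windows held neither form, and 1.11% of 32851 mouse promoter windows of this length held it on either strand. The motif was picked after the sequences were seen. The E-box CANNTG was present in 72.3% of all windows, GATAA in 25.4%, CATTCC in 14.7% and TATAAA in 13.6%. Of the windows matched here, those of Hrc, Pln and Slc8a1 held GATAA, that of Pln held TATAAA, and none held CATTCC. A match of letters is a description of the window only.

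Per kilobase of exonic sequence summed over isoforms, transcript levels spanned a wide range among the 10 genes. Over the 9 libraries Atp2a2, which encodes the SERCA2 pump (SERCA2a is its main isoform in heart; the counts hold all isoforms), averaged 2354 ± 475 CPM per kb (SD), and Pln, its inhibitor phospholamban, 1583 ± 354. Their ranges over libraries overlapped, but within every library Atp2a2 was the higher. The luminal proteins came next, with Casq2 (cardiac calsequestrin, the main calcium buffer of the reticulum) at 339 ± 44.7 and Hrc (the histidine-rich calcium binding protein) at 324 ± 55.3 CPM per kb, 2 neighbours whose ranges overlapped. The release channel Ryr2 followed at 66.6 ± 25.0, and Trdn (triadin, which ties calsequestrin to the channel) at 33.3 ± 7.21, again with overlapping ranges. The L-type channel subunit Cacna1c at 13.1 ± 4.46, the exchanger Slc8a1 at 10.1 ± 4.04 and the kinase Camk2d at 7.12 ± 0.818 CPM per kb also overlapped in range.

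Sln, the sarcolipin gene, which in mouse heart is known as an atrial transcript, was close to absent. It had 0, 0 and 1 count in the KO ifetroban libraries, 0 in both KO vehicle libraries, 0 and 1 count in the WT ifetroban libraries, and 2 and 0 counts in the WT vehicle libraries, 4 counts in all. Every library lay under the limit of 3 counts that a count of 0 allows, which was 0.0956 to 0.141 CPM, so no fold change or ratio was calculated. That limit covers counting error only. Of 6 atrial cardiomyocyte markers 4 were tested, and the list summed to 40.1 to 94.6 CPM in KO and 102 to 109.9 CPM in WT libraries. Among them Myl7 (0.0397 to 0.327 CPM in KO, 0.0513 to 0.232 in WT) and Bmp10 (0.0388 to 0.28 in KO, 0.0384 to 0.277 in WT) were near 0, and Myl4 was at 1.35 to 2.29 CPM in KO and 1.23 to 1.74 CPM in WT. Kcnj3 (14.4 to 69.4 CPM in KO, 79.6 to 87.1 in WT), Stard10 (15.7 to 21.9 in KO, 17.0 to 25.2 in WT) and Dkk3 (4.17 to 17.2 in KO, 2.21 to 3.72 in WT) made up most of the sum, and none of the 6 was at 0 in any library.

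**Figure D1:**
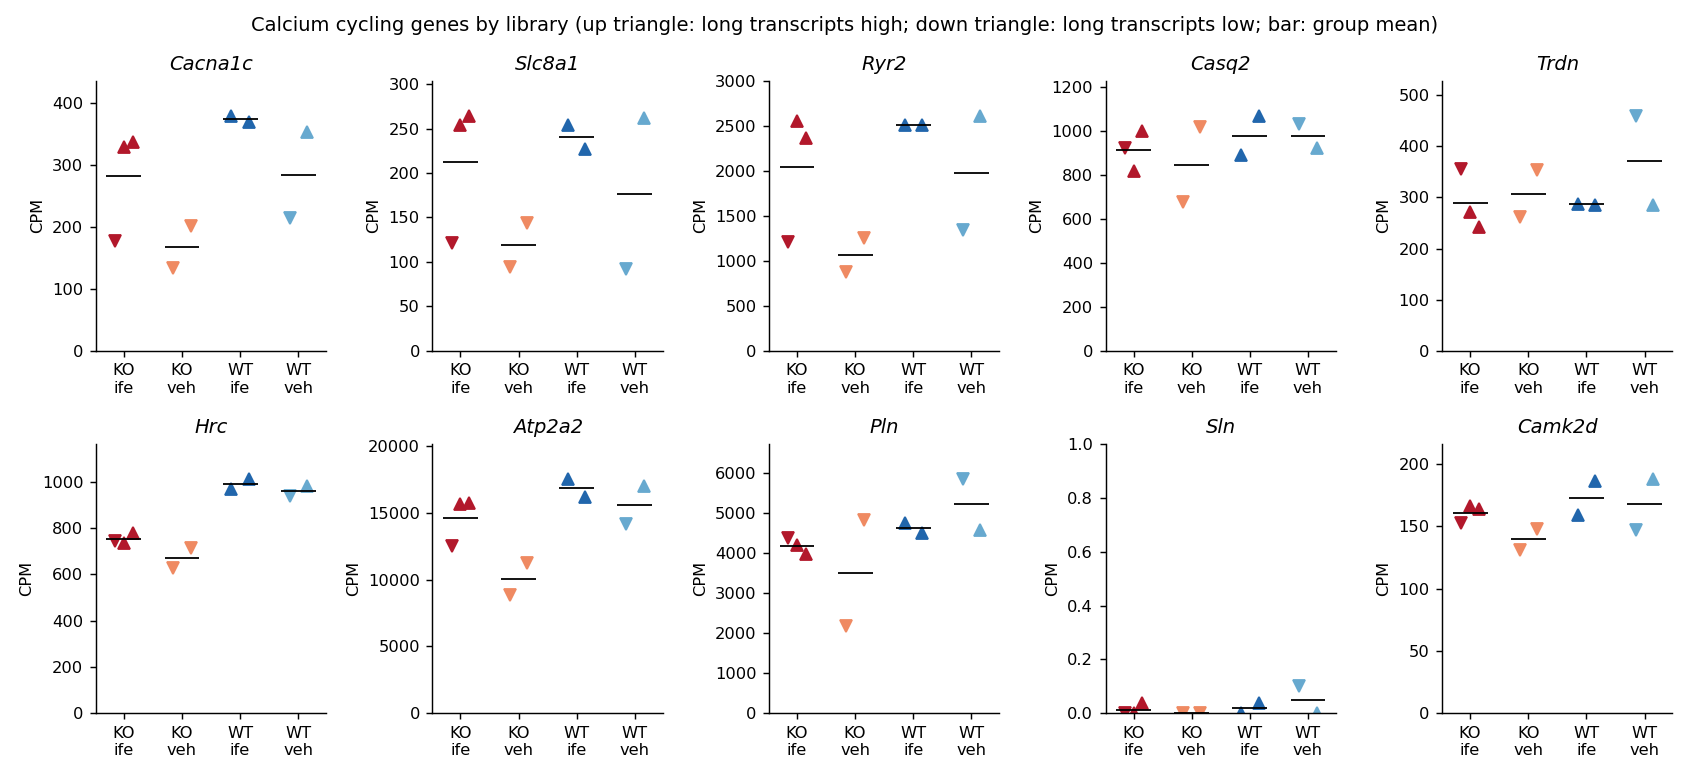
CPM of the 10 calcium cycling genes in each library, by group (ife, ifetroban; veh, vehicle); bars are group means and the direction of the triangle gives the library's transcript length class. Hrc is the gene whose 5 KO libraries (627 to 777 CPM) all lie under its 4 WT libraries (937 to 1012 CPM); Ryr2, Cacna1c and Slc8a1 split by triangle direction.

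The first comparison asks what loss of delta-sarcoglycan did to these genes with both treatments averaged. All 9 tested genes had a negative log2 fold change of KO over WT, between -0.59 and -0.13 with a median of -0.37. The median over all 15261 tested genes was 0, and 50.5% of them were negative. The 9 genes are not independent, since some rose and fell together over the libraries (Pearson correlation 0.99 for Cacna1c with Ryr2). KO vehicle 1 was the lowest library for 7 of the 9. None of the 9 passed an adjusted p of 0.05 in edgeR's quasi-likelihood test, which called 0.537% of all tested genes (82 genes; 2 to 2098 with single libraries left out, the highest without KO vehicle 2). At an unadjusted p under 0.05, 4 of the 9 were lower in KO (Hrc, Atp2a2, Cacna1c and Ryr2), against 5.94% of all tested genes. DESeq2 called 1 of the 9, Hrc, but also called more genes over all, 745 of 27245. Without a low-count filter edgeR called 1684 of 27246 genes in this comparison. In simulated counts of this design the test recovered 68% of genes changed by a log2 fold of 1, and none of the 9 genes differed by that much.

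Of the release and luminal genes, Hrc separated the genotypes most clearly. Hrc had 743, 734 and 777 CPM in KO ifetroban and 627 and 713 CPM in KO vehicle libraries, against 967 and 1012 CPM in WT ifetroban and 937 and 983 CPM in WT vehicle libraries. Every KO library was under every WT library, with the library labelled WT vehicle 1 counted as WT. Hrc was the only 1 of the 9 for which that held, and 2.28% of all tested genes were lower in KO without overlap. The averages were 719 ± 56.4 CPM in KO (SD, n = 5) and 974 ± 31.2 CPM in WT (SD, n = 4), a log2 fold change of -0.46 ± 0.102 (SE) with an edgeR adjusted p of 0.0787. The difference was -0.44 within the libraries where long transcripts were low and -0.39 where they were high, so it was of similar size in both classes, with 1 WT library in the low class. Over the alternative fits it ranged from -0.60 to -0.37, and the adjusted p fell under 0.05 with DESeq2 (0.00182), without a low-count filter (0.0283), with length offsets (0.0457) and without KO vehicle 2 (0.0188). In that last fit KO vehicle 1 was the only library of its group and was assumed to vary like the other groups. Without KO vehicle 1 and the library labelled WT vehicle 1 it was -0.43 (adjusted p = 0.221), with 1 vehicle library left in each genotype.

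Ryr2, the release channel, had 1206, 2560 and 2365 CPM in KO ifetroban and 880 and 1254 CPM in KO vehicle libraries, against 2519 and 2511 CPM in WT ifetroban and 1341 and 2612 CPM in WT vehicle libraries. The 4 low values in this gene, 3 KO and 1 WT, were the 4 libraries with long transcripts low, and the genotypes overlapped. The averaged log2 fold change was -0.59 ± 0.26 (edgeR adjusted p = 0.296). It was -0.29 within the low class and -0.05 within the high class, and -0.18 ± 0.123 (adjusted p = 0.544) with the class as a term. Casq2 averaged 886 ± 141 CPM in KO (SD, n = 5) and 977 ± 84.9 CPM in WT (SD, n = 4), and its log2 fold change of -0.15 ± 0.147 had an edgeR adjusted p of 0.615. Trdn averaged 297 ± 54.1 CPM in KO and 329 ± 86.4 CPM in WT, with -0.13 ± 0.181 (adjusted p = 0.744), and its highest value, 459 CPM, was in the library labelled WT vehicle 1.

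Among the genes of uptake, Atp2a2 had 12497, 15670 and 15733 CPM in KO ifetroban and 8874 and 11266 CPM in KO vehicle libraries, against 17519 and 16133 CPM in WT ifetroban and 14141 and 16992 CPM in WT vehicle libraries. The 2 highest KO values lay above the lowest WT value, that of the library labelled WT vehicle 1, and otherwise KO was lower. Atp2a2 averaged 12808 ± 2945 CPM in KO (SD, n = 5) and 16196 ± 1484 CPM in WT (SD, n = 4), a log2 fold change of -0.41 ± 0.132 with an edgeR adjusted p of 0.181. The difference was -0.39 within the low class and -0.10 within the high class. Without KO vehicle 2, which left KO vehicle 1 alone in its group under the same assumption, it was -0.51 with an adjusted p of 0.0484, and without the low-count filter -0.42 with 0.0277.

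Pln had 4390, 4196 and 3973 CPM in KO ifetroban and 2184 and 4840 CPM in KO vehicle libraries, against 4761 and 4514 CPM in WT ifetroban and 5856 and 4590 CPM in WT vehicle libraries. The value of KO vehicle 1 stood far under the other 8, while KO vehicle 2 lay within the WT range. The log2 fold change of Pln was -0.36 ± 0.208 (edgeR adjusted p = 0.401); without KO vehicle 2 it was -0.71 with an adjusted p of 0.0109, where KO vehicle 1 was again alone in its group. Camk2d, which encodes the main cardiac isoform of the calcium-calmodulin kinase that phosphorylates Pln and Ryr2 proteins, averaged 152 ± 14.1 CPM in KO (SD, n = 5) and 169.8 ± 20.2 CPM in WT (SD, n = 4), with a log2 fold change of -0.18 ± 0.12 (adjusted p = 0.458).

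At the cell surface, Cacna1c had 178, 330 and 337 CPM in KO ifetroban and 133 and 202 CPM in KO vehicle libraries, against 379 and 369 CPM in WT ifetroban and 214 and 354 CPM in WT vehicle libraries. As in Ryr2, the 4 lowest values came from the 4 libraries with long transcripts low. The averaged log2 fold change was -0.59 ± 0.233 (edgeR adjusted p = 0.261), against -0.35 within the low class, -0.14 within the high class and -0.25 with the class as a term. Slc8a1 had 121, 254 and 264 CPM in KO ifetroban and 94.2 and 144 CPM in KO vehicle libraries, against 254 and 227 CPM in WT ifetroban and 91.9 and 262 CPM in WT vehicle libraries. Its lowest value was in the library labelled WT vehicle 1. The log2 fold change of Slc8a1 was -0.37 ± 0.324 (edgeR adjusted p = 0.575). It was 0.36 within the low class, 0.07 within the high class and 0.21 with the class as a term, so its sign differed between these settings. The value of the low class rests on 1 WT library, the one labelled WT vehicle 1, and neither class value balances treatment.

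**Figure D2:**
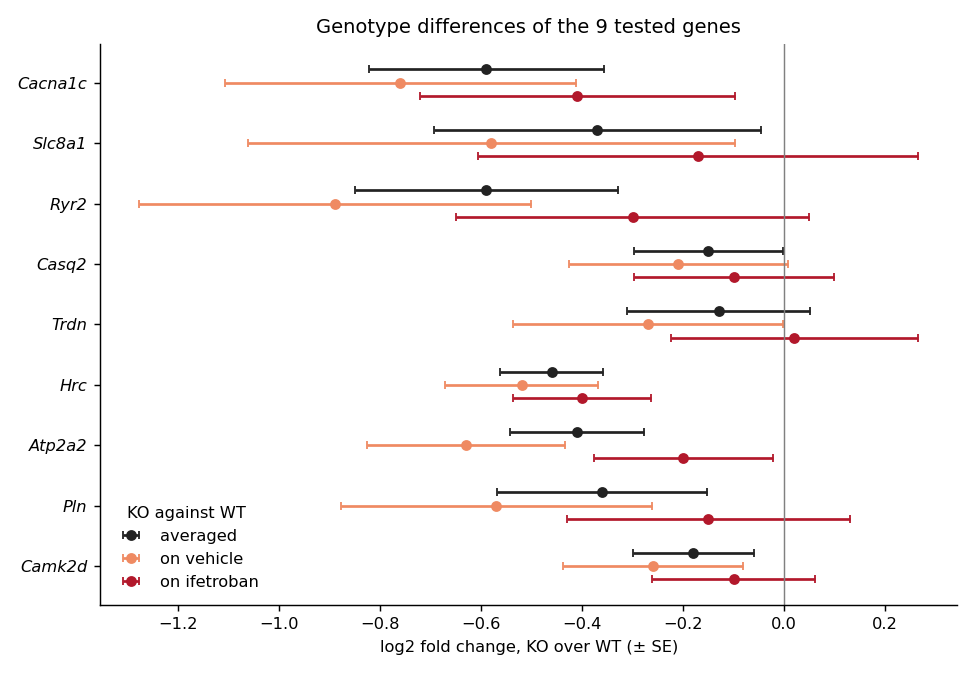
Log2 fold changes of KO over WT with their standard errors for the 9 tested genes, averaged over treatments, on vehicle and on ifetroban. All 9 averaged values lie under 0, from -0.59 to -0.13, and none passed an adjusted p of 0.05; Hrc has the smallest error relative to its size.

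Some of these genes stepped between the length classes and others hardly did. Libraries with long transcripts high, minus those with them low, differed on the log2 scale by 1.19 in Slc8a1, 1.12 in Ryr2 and 0.98 in Cacna1c, which have 18807 to 28790 exonic bases. The step was 0.51 in Atp2a2 (6081 bases), 0.25 in Hrc (2566), 0.12 in Pln (2759) and 0.06 in Casq2 (2736). Camk2d, with 22493 bases, is longer than Slc8a1 and Cacna1c, but its step was also only 0.25. In Trdn (9352 bases) the step was -0.36, while the median of all tested genes was -0.02. Over the 9 genes the step and the exonic length had a Spearman correlation of 0.6, as a description. The classes were assigned by the relation of level to length over all tested genes, these 9 included. A step that rises with length is therefore built into the classes for genes on average. The part of this step in the genotype differences cannot be told apart from genotype. The values given within each class do not balance treatment, and those of the low class rest on 1 WT library.

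**Figure D3:**
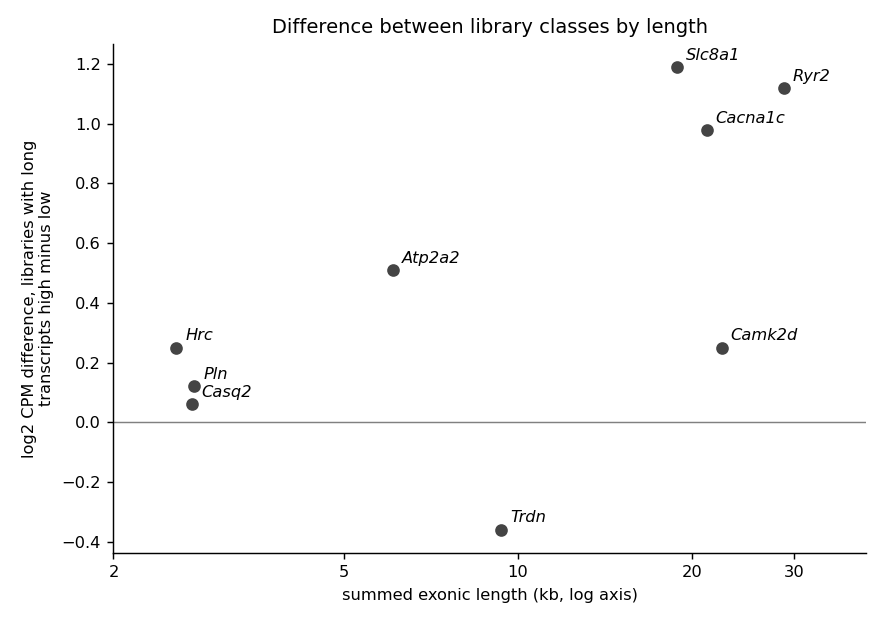
Difference in mean log2 CPM between the 5 libraries with long transcripts high and the 4 with them low, against summed exonic length (log axis), for the 9 tested genes. Slc8a1, Ryr2 and Cacna1c lie near a difference of 1 (1.19, 1.12 and 0.98), Hrc and the long Camk2d at 0.25 and Trdn at -0.36.

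Summed levels of some cell markers differed between the genotypes beside these genes, and those of others overlapped. The summed level of 7 ventricular cardiomyocyte markers was 44221 to 49080 CPM in KO and 52360 to 54569 CPM in WT libraries, with all 7 tested. Gene by gene the levels of each of the 7 overlapped between KO and WT libraries, with 2 higher and 5 lower in KO and a median log2 fold change of -0.02. The 5 fibroblast markers summed to 1068 to 1506 CPM in KO and 718 to 868 CPM in WT, and the 4 macrophage markers to 155 to 193 CPM in KO and 87.2 to 111 CPM in WT; no marker of these 3 lists was at 0 in any library. Among fibroblast markers Col1a1 and Col3a1 were higher in KO without overlap, and Pdgfra, Dcn and Tcf21 overlapped. Each macrophage marker was higher in KO without overlap. Of all tested genes, 5.03% were higher in KO without overlap. Summed endothelial markers overlapped (621 to 819.6 CPM in KO, 560.3 to 856 in WT). Summed smooth muscle markers overlapped too (158 to 316 CPM in KO, 124 to 200.3 in WT). Scaled to the cardiomyocyte markers, Hrc had a log2 fold change of -0.37 ± 0.113 (edgeR adjusted p = 0.151), Atp2a2 -0.33 and Ryr2 -0.51. The part of tissue makeup in the lower levels of the calcium genes was not tested beyond this scaling. Skeletal muscle markers, 3 of 8 tested, summed to 35.5 CPM in KO ifetroban 3 and to 1.88 to 3.35 CPM in the other 8 libraries.

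On vehicle alone, KO against WT, all 9 log2 fold changes were again negative, from -0.89 to -0.21 with a median of -0.57 (all tested genes: median -0.01, 51.5% negative). These values share libraries with the averaged comparison. None of the 9 was called by edgeR, which called 0.0524% of tested genes (8 genes; 1 to 1734 with single libraries left out, the highest without KO vehicle 2), or by DESeq2, and 3 had an unadjusted p under 0.05, all lower, against 4.25% of tested genes. Ryr2 was at -0.89 ± 0.388 (edgeR adjusted p = 0.389), Cacna1c at -0.76 ± 0.347 (0.4), Atp2a2 at -0.63 ± 0.196 (0.285), Pln at -0.57 ± 0.308 (0.462) and Hrc at -0.52 ± 0.152 (0.266). Cacna1c, Ryr2, Hrc and Atp2a2 were lower in KO vehicle without overlap, which 18.2% of tested genes were. With the length class as a term the values were -0.31 for Ryr2, -0.30 for Cacna1c, -0.47 for Atp2a2, -0.67 for Pln and -0.50 for Hrc. Without KO vehicle 1 and the library labelled WT vehicle 1, Pln turned to 0.08; that left 1 KO library of the low class against 1 WT library of the high class.

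With ifetroban in both genotypes, KO against WT, the differences were smaller in size. The 9 log2 fold changes ran from -0.41 to 0.02, with 8 negative and a median of -0.17, against a median of 0.01 and 48.2% negative over all tested genes. None was called by edgeR, which called 0.0131% of tested genes (2 genes), or by DESeq2, and Hrc was the 1 gene with an unadjusted p under 0.05, against 0.852% of tested genes in that direction. Hrc stood at -0.40 ± 0.137 (edgeR adjusted p = 0.892), Cacna1c at -0.41 ± 0.312 and Atp2a2 at -0.20 ± 0.177. Without single libraries Hrc ran from -0.44 to -0.36, Cacna1c from -0.57 to -0.16 and Atp2a2 from -0.27 to -0.1. KO ifetroban 1 was the only library of the low length class in this comparison. Cacna1c, Hrc, Atp2a2 and Pln were lower in KO ifetroban without overlap, as were 12.9% of tested genes.

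In the knockout, ifetroban against vehicle gave 8 of 9 positive log2 fold changes, with a median of 0.25 and a range of -0.09 to 0.94, against a median of -0.02 over all tested genes. No gene of the 15261 was called by edgeR (0%) and none of the 9 by DESeq2. At an unadjusted p under 0.05, 3 of the 9 were higher with ifetroban, Ryr2 (0.94 ± 0.362), Cacna1c (0.75 ± 0.322) and Atp2a2 (0.54 ± 0.18), each with an edgeR adjusted p of 0.688, against 2.59% of tested genes. Hrc, Atp2a2 and Camk2d were higher with ifetroban without overlap, as were 8.38% of tested genes. Both KO vehicle libraries belonged to the class with long transcripts low, and so did 1 of the 3 KO ifetroban libraries. In that library Ryr2, at 1206 CPM, lay between the 2 vehicle libraries (880 and 1254 CPM), and Cacna1c, at 178 CPM, did as well (133 and 202 CPM), while Atp2a2, at 12497 CPM, lay above both (8874 and 11266 CPM). With the class as a term the values were 0.20 for Ryr2, 0.14 for Cacna1c, 0.33 for Atp2a2 and -0.09 for Slc8a1, which stood at 0.84 without it. Pln stood at 0.25, at -0.21 without KO vehicle 1 and at 0.95 without KO vehicle 2.

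In wild type, ifetroban against vehicle moved the 9 genes by -0.38 to 0.44 on the log2 scale with a median of 0.04, and no tested gene was called by edgeR (0%), none of the 9 by DESeq2, and none of the 9 had an unadjusted p under 0.05, against 1.26% of tested genes. Cacna1c was higher with ifetroban without overlap, as were 14.9% of tested genes, at a log2 fold change of 0.40 ± 0.345, and at 0.03 with the length class as a term and 0.08 without the library labelled WT vehicle 1. The test of whether the drug effect differed between genotypes gave 9 positive values, from 0.11 to 0.59 with a median of 0.35. Over all tested genes the median was 0.03 and 46.3% were negative. The smallest edgeR adjusted p of the 9 was 1, and DESeq2 called none of them. None had an unadjusted p under 0.05, against 1.38% of tested genes, and 0% of tested genes were called by edgeR in this test. Ryr2 had the highest value there, 0.59 ± 0.523, and ran from 0.03 to 1.01 without single libraries. Atp2a2 ran from 0.26 to 0.62 and Hrc from 0.03 to 0.22. The 9 values share libraries and are not independent. Averaged over genotypes, 8 of 9 genes were higher with ifetroban, with a median of 0.12. Over all tested genes the median was -0.03 and 53.4% were negative, and 0% of tested genes were called. Ryr2 (0.64 ± 0.263), Cacna1c (0.57 ± 0.235) and Atp2a2 (0.33 ± 0.132) had an unadjusted p under 0.05 (edgeR adjusted p = 0.62 each), against 2.46% of tested genes in that direction. With the length class as a term these 3 stood at 0.06, 0.08 and 0.15. DESeq2 called none of the 9.

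**Figure D4:**
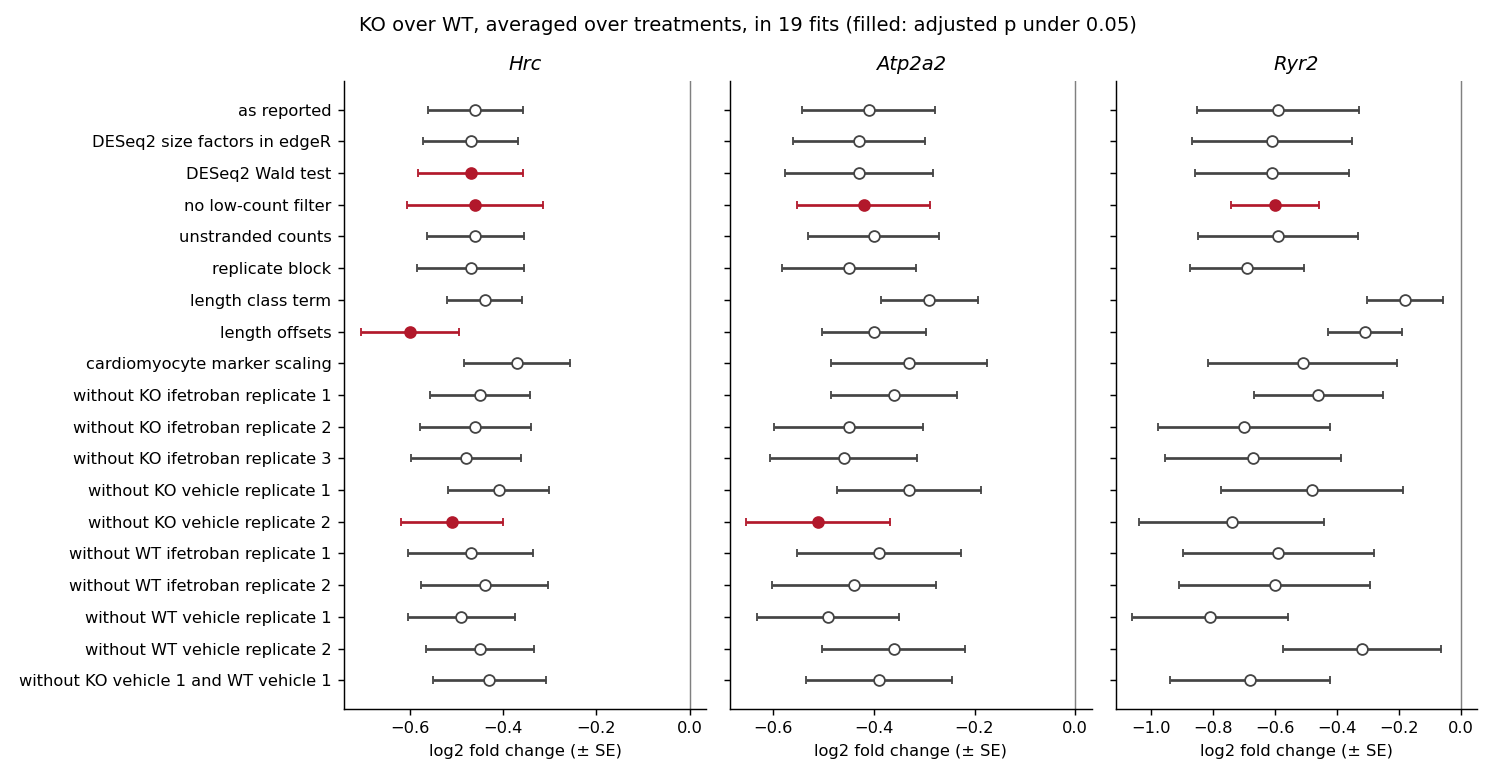
Log2 fold changes of KO over WT, averaged over treatments, with standard errors for Hrc, Atp2a2 and Ryr2 in 19 fits; filled points have an adjusted p under 0.05. Hrc keeps between -0.60 and -0.37, while Ryr2 moves between -0.81 and -0.18.

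Ratios within a library do not depend on library scaling. Per kilobase, the log2 ratio of Pln to Atp2a2 averaged -0.59 ± 0.35 in KO (SD, n = 5) and -0.58 ± 0.299 in WT (SD, n = 4). Averaged over treatments the difference of KO minus WT was 0.01 (exact permutation within treatment, two-sided, p = 0.967 over 60 arrangements, smallest possible p 0.0167; adjusted over 2 ratios 0.967). The ratio ranged widely within genotypes, from 0.542 to 0.947 on the linear scale in KO and from 0.595 to 0.913 in WT. The highest values were in KO vehicle 2, the library labelled WT vehicle 1 and KO ifetroban 1 (0.774), all of the low length class. KO vehicle 1, also of that class, had the lowest value. Within each length class the difference of KO minus WT was negative, with values given at the end. The log2 ratio of Slc8a1 to Atp2a2 averaged -7.91 ± 0.358 in KO and -8.01 ± 0.589 in WT, a difference of 0.08 averaged over treatments (exact permutation p = 0.85, adjusted 0.967). Within the low and high length classes the difference was 0.75 and 0.17, with 1 WT library in the low class, the one labelled WT vehicle 1. A ratio of Sln to Atp2a2 could not be formed.

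Across the 9 libraries the log2 levels of some genes ran together, which is given as a description since the points share length class and depth. Pearson correlations were 0.99 for Cacna1c with Ryr2, 0.95 for Cacna1c with Atp2a2, 0.94 for Slc8a1 with Ryr2 and 0.83 for Casq2 with Pln, and -0.64 for Trdn with Slc8a1. Of 8971 other genes, the 5 whose log2 levels were most like those of Atp2a2 over the 9 libraries were Dip2c (r = 0.99), Tbc1d16 (0.989), Ppip5k2 (0.987), Scn4a (0.987) and Tmem63b (0.986), with 5098 to 14381 exonic bases.

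Other genes of calcium handling were read from 6 wider lists with 90 genes, of which 89 were tested. None was called by edgeR in any of the 7 comparisons. DESeq2 called 745 of 27245 genes in the averaged genotype comparison, of which 4 were on these lists (Rrad, Pde4d, Rcan1 and Mcub). It called 0 of the listed genes in the others. In the averaged genotype comparison 38 were higher and 51 lower in KO, with a median of -0.05, and 7 higher and 13 lower at an unadjusted p under 0.05, against 10.6% and 5.94% of all tested genes. The median of the 9 cycling genes was -0.37, and the difference between the lists was not tested. Where a gene is given as separating the genotypes without overlap, 5.03% of all tested genes did so with KO higher.

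In the list of kinases, phosphatases and cAMP control (13 of 16 lower, median -0.20), Rcan1, a calcineurin inhibitor whose transcript calcineurin signalling raises, averaged 339 ± 398 CPM in KO (SD, n = 5) and 89.0 ± 15.5 CPM in WT (SD, n = 4). KO vehicle 1 held 1049 CPM of Rcan1, and the other 4 KO libraries 125 to 206 CPM, all above the highest WT library at 106 CPM. The log2 fold change of Rcan1 was 1.84 ± 0.487 (edgeR adjusted p = 0.121), and leaving out single libraries moved it between 0.76 and 2.25. Pde4d, a cAMP phosphodiesterase, was at -0.77 and Camk2b, another kinase isoform, at -0.47, with adjusted p of 0.192 and 0.149.

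In mitochondrial calcium uptake (5 higher, 6 lower, median -0.04), Mcub, the subunit that dampens the uniporter, averaged 3.65 ± 1.17 CPM in KO (SD, n = 5) and 1.84 ± 0.276 CPM in WT (SD, n = 4). Its lowest KO library, at 2.58 CPM, lay above its highest WT library, at 2.09 CPM, and its log2 fold change was 1.01 ± 0.262 (edgeR adjusted p = 0.114; DESeq2 0.0245).

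In release and junction (9 higher, 12 lower, median -0.05), Jph1, a junctophilin that holds the reticulum against the surface membrane, averaged 23.1 ± 4.12 CPM in KO and 29.8 ± 2.27 CPM in WT, with a log2 fold change of -0.42 ± 0.119 (edgeR adjusted p = 0.144). Ryr3, a minor ryanodine receptor at 0.838 ± 0.196 CPM in KO and 1.75 ± 0.603 CPM in WT, was at -1.03, and Bin1, which shapes the transverse tubules, was at 0.74, with KO vehicle 1 (21.5 CPM) above the other 4 KO libraries. Adjusted p was 0.166 and 0.168.

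In uptake and its regulators (6 higher, 4 lower, median 0.07), Strit1, which encodes a small activator of the pump, averaged 6.31 ± 1.58 CPM in KO and 10.5 ± 4.47 CPM in WT. Its highest WT value, 17.2 CPM, was in the library labelled WT vehicle 1, and its log2 fold change was -0.70 (edgeR adjusted p = 0.23). Ppp1r3a, a glycogen-targeting subunit of protein phosphatase, was at -0.47 and Calr, a luminal calcium-binding chaperone, at 0.43, with adjusted p of 0.248 and 0.267.

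In calcium entry (12 higher, 10 lower, median 0.06), the T-type channel Cacna1g was at -0.69, the L-type auxiliary subunit Cacna2d1 at -0.43, the auxiliary subunit Cacnb3 at 0.52 and Rrad, a small GTPase that holds back the L-type channel, at 0.88, with edgeR adjusted p of 0.217, 0.197, 0.243 and 0.207. Rrad was highest in KO vehicle 1 (769 CPM) and leaving out single libraries moved it between 0.37 and 1.18. In extrusion and sodium balance (3 higher, 6 lower of 9 tested, median -0.03), Atp2b2, a plasma membrane calcium pump, was at -1.12 (adjusted p = 0.299) from levels under 1 CPM.

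**Figure D5:**
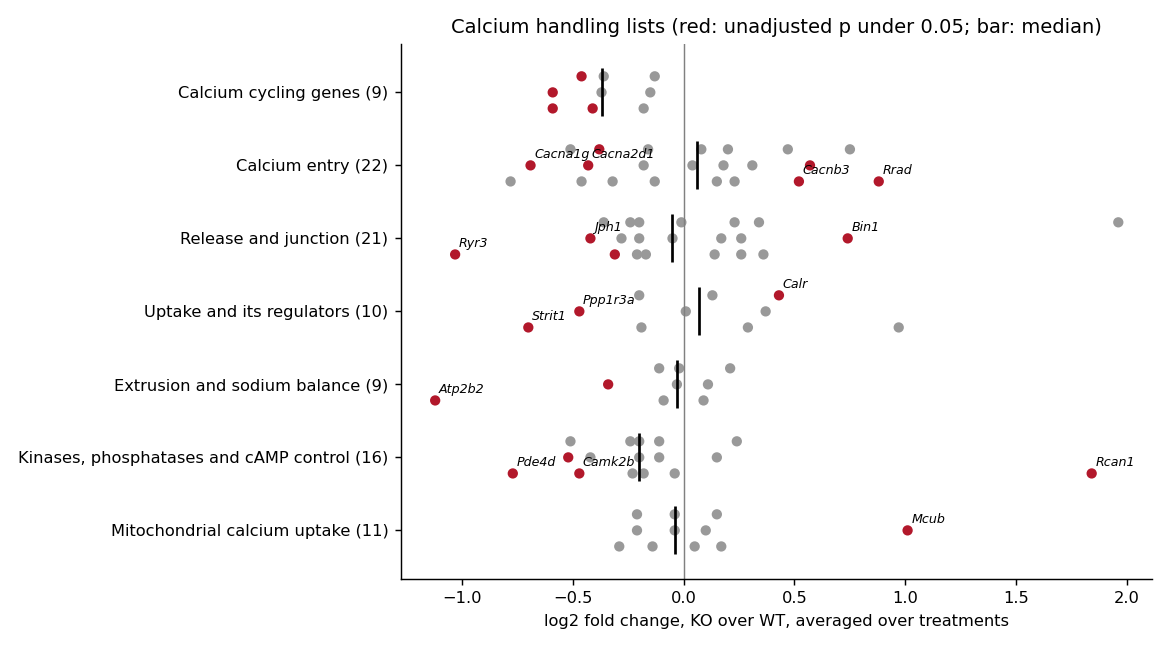
Log2 fold changes of KO over WT, averaged over treatments, for the 9 tested calcium cycling genes and the 6 wider lists; each point is a gene, red points have an unadjusted p under 0.05, bars are medians and the number tested is in parentheses. The cycling genes have their median at -0.37, the wider lists between -0.20 and 0.07, and no gene passed an adjusted p of 0.05.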

How the data were processed

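Polyadenylated RNA of mouse left ventricle was sequenced in 9 libraries, grouped by the sample titles. For each library the authors deposited whole-number counts of reads by gene, without normalization. STAR 2.5.2b, HTSeq and the build GRCm38 are named, per the submitters' processing notes; the annotation release is not given in the sources used here. Column 4, the reverse-strand counts, was used. Rows that name no gene held 26.6% to 31.9% of reads and were left out. Symbols, lengths and coordinates came from GENCODE M21 (49412 of 49671 identifiers matched). Slc8a1, Atp2a2 and Pln overlap genes on the opposite strand, which counting by strand separates.

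Genes were tested with edgeR 4.0.16 in R 4.3.3 (quasi-likelihood F test, TMM, filterByExpr, 1 coefficient per group, all 9 libraries, 15261 genes, two-sided, Benjamini-Hochberg over all tested genes, threshold 0.05). The prior count was 0.125 for fold changes and 2 for log2 CPM. Standard errors were back-calculated from fold change and F statistic. CPM uses TMM library sizes. DESeq2 1.42.0 was an alternative, and limma 3.58.1 was loaded by edgeR. The test was checked on simulated counts with 103 genes changed by a log2 fold of 1 and 97 by a log2 fold of 2. On vehicle it recovered 17.5% and 77.3% of them, with 14 false calls in all. Averaged over treatments it recovered 68% and 91.8%, with 18 false calls in all. In these 2 comparisons false calls made up a larger share of the calls than the threshold of 0.05. On ifetroban, KO against WT, it recovered 33% and 82.5% with 5 false calls, a share under that threshold.

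Replicates within a group differed by a chi-square of 9.96 to 58.6 per degree of freedom, so none was a copy of another. Members of the calcium list and the wider lists were chosen with earlier results of these data known. All 10 genes are named, and of the wider lists up to 2 genes per list and direction with the smallest p; values are given for those with an unadjusted p under 0.05 in the averaged comparison, except 1 gene that is not reported here. Genes most like Atp2a2 needed a mean log2 CPM of at least 3; the same search for Sln could not be made, since Sln failed the filter. Length class was assigned by the sign of the correlation between a library's deviations and exonic length. Alternatives were other scalings, no filter, unstranded counts, a replicate block, a length class term, length offsets, only the groups compared, and leaving out libraries.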

Additional observations from a re-analysis of the deposited data

How the results depend on the processing

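Of the 9 calcium cycling genes, the number called stayed at 0 in every comparison under DESeq2 size factors, unstranded counts, the replicate block, the length class term, cardiomyocyte scaling and, where run, only the groups compared. Without a low-count filter it was 3 for KO against WT on vehicle, 3 for ifetroban in KO, 4 for genotype averaged and 3 for ifetroban averaged; for genotype averaged it was 1 with DESeq2 and 1 with length offsets. Leaving out single libraries gave 0 to 1 on vehicle, 0 to 1 for ifetroban in KO and 0 to 3 for genotype averaged, the highest without KO vehicle replicate 2. The cause of these moves was not tested.

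Over all tested genes, the calls for KO against WT on vehicle were 8 as reported and 363 with DESeq2. They were 1195 without the filter, 45 with the replicate block and 1 with the class term. Length offsets gave 15, and only those groups 5. For genotype averaged they were 82, against 745 with DESeq2, 1684 without the filter, 531 with the replicate block and 9 with the class term. How far the calls on vehicle and averaged moved without single libraries is given above. For KO against WT on ifetroban they were 2, against 68 with DESeq2 and 428 without the filter. The class term gave 1, cardiomyocyte scaling 1 and only those groups 12. Comparisons with 0 calls gave, without the filter, 428 for ifetroban in KO (DESeq2 3, single libraries 0 to 449), 34 in WT, 73 for the interaction and 290 for ifetroban averaged (DESeq2 1).

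Log2 fold changes that turned sign were Slc8a1 under the class term (0.25 on vehicle, 0.21 averaged, -0.09 for ifetroban in KO) and Camk2d under length offsets (0.03 and 0.08). Without KO vehicle replicate 1 and WT vehicle replicate 1, Casq2 (0.15 on vehicle, 0.02 averaged), Trdn (0.32 and 0.17) and Pln (0.08 on vehicle, -0.21 for ifetroban in KO) turned; on vehicle that setting left 1 KO library of the low and 1 WT library of the high length class. Without single libraries, on vehicle Slc8a1 ran from -1.16 to 0.36, Casq2 from -0.53 to 0.06 and Trdn from -0.59 to 0.09, for ifetroban in KO Pln from -0.21 to 0.95, and averaged Slc8a1 ran from -0.67 to 0.09 and Trdn from -0.29 to 0.05. The other log2 fold changes printed, wider lists included, kept their sign in each setting.

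The difference in the Pln to Atp2a2 ratio, 0.01, was -0.01 with unstranded counts, -0.01 without treatment as a stratum, -0.31 and -0.07 within the low and high length classes, and -0.19 to 0.21 without single libraries. The Slc8a1 to Atp2a2 difference, 0.08, was 0.75 and 0.17 within the low and high length classes and -0.23 to 0.4 without single libraries. Without KO vehicle 1 and the library labelled WT vehicle 1 it was -0.16, a setting chosen after seeing the data. Replicate numbers were not shown to pair libraries. Deviations from the group mean correlated at 0 to 0.48 in same-number pairs, with 5 of 12 over 0.1. In a group of 2 the deviations mirror each other, so the 12 pairs are not independent. Pairs of different number were not compared, so these values cannot decide whether the numbers pair libraries. The replicate block changed no call among the 9 genes; of the wider genes named it brought Pde4d (-0.91) under the threshold.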
